A study of Mus musculus with 16 samples.

Results

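The 36 genes described here encode the folding and quality-control machinery of the endoplasmic reticulum (ER), the compartment where secreted and membrane proteins are made. They were picked by name and fall into 7 roles: Hsp70 and Hsp90 chaperones with their cofactors, secreted ER stress proteins, lectin chaperones, disulfide isomerases, ER-associated degradation, the stress sensors with Xbp1, and the translocon. Each of the 36 names matched 1 of the 55487 rows of the deposited tables, and all 36 were among the 15470 genes that passed the filter on low counts. Derl3 passed it only through the IL-33 libraries, so counts over the genes are also given without it.

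Polyadenylated RNA, selected from total RNA, was sequenced from cultured bone marrow-derived cells of mice with a C57BL/6 background, in 16 libraries that form 4 groups of 4. The groups were Nbeal2-/- with IL-33, Nbeal2-/- without treatment, wild type (WT) with IL-33 and WT without treatment. The title of the series calls the cells mast cells, while the sample labels expand the same abbreviation as mononuclear cells. Nbeal2 encodes a BEACH-domain protein, and IL-33 is a cytokine released by damaged tissue, for which mast cells carry the receptor ST2. How much IL-33 was added and for how long, which part of Nbeal2 was deleted and how many mice were used is not stated in the labels. The labels do not tie replicates to separate mice or cultures, so each p-value measures only how far these libraries spread, which may be technical.

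Library totals ran from 36405209 to 57694499 counts, so 1 count in the smallest library is worth 0.0275 CPM, the count scaled to the size of the library. Nbeal2 itself stood at 64.3 to 76.9 CPM in Nbeal2-/- with IL-33, 85.0 to 103 CPM in Nbeal2-/- untreated, 183 to 258 CPM in WT with IL-33 and 224 to 448 CPM in WT untreated. Transcripts of 10 mast cell markers summed to 49530 to 52940 RPM, the deposited count scaled by the library total, in Nbeal2-/- with IL-33, 44310 to 49230 RPM in Nbeal2-/- untreated, 60380 to 62380 RPM in WT with IL-33 and 58940 to 61840 RPM in WT untreated. B and plasma cells, which use the same ER genes heavily, left little trace: 8 of their markers summed to at most 0.884 RPM in any library, and Pax5 was at 0 in all 16 libraries. Neutrophil markers reached at most 0.0606 RPM over 7 genes, and T cell markers at most 0.325 RPM over 5. Macrophage markers, of 8 genes, summed to 16.8 to 22.1 RPM in Nbeal2-/- with IL-33, 19.8 to 32.6 RPM in Nbeal2-/- untreated, 9.998 to 12.4 RPM in WT with IL-33 and 8.11 to 10.1 RPM in WT untreated. Basophil markers, of 4 genes, lay between 270 and 436 RPM and were lowest in the Nbeal2-/- libraries with IL-33. In bulk RNA, fewer cells of a type and less RNA per cell cannot be told apart. In both genotypes the untreated library numbered 1 was the lowest of its group for Ern1, Atf6 and Eif2ak3 and the highest for Manf, Creld2 and Sdf2l1, so counts of calls among the 36 genes were also taken without the 4 libraries numbered 1.

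A protein entering the ER passes the Sec61 channel, is bound by the Hsp70 chaperone BiP and, if glycosylated, by the lectins calnexin and calreticulin, and receives its disulfide bonds from the protein disulfide isomerases. Proteins that fail to fold are drawn back to the cytosol through the Hrd1 ubiquitin ligase complex and degraded. When unfolded protein accumulates, the membrane sensors IRE1 (Ern1), PERK (Eif2ak3) and ATF6 (Atf6) start the unfolded protein response. IRE1 splices the Xbp1 messenger into the form that encodes an active transcription factor, PERK slows translation, and ATF6 is cut in the Golgi to release a transcription factor. Mast cells make and store large amounts of secretory protein in granules.

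A short promoter sequence is known from classic work on several of these very genes: the ER stress response element (ERSE), bound by NF-Y and ATF6 or XBP1. It was searched as CCAAT, 9 bases of any kind and CCACG, on both strands of the RefSeq promoter table of build GRCm38.p6, from 250 bases before to 50 bases after each gene start. Of the 36 genes 30 had an entry. The 6 without one were Atf6, Derl1, Hyou1, Manf, Sec61a1 and Sil1. The element stood in the window of 9 of the 30 (30%), against 37 of all 27025 genes in the table (0.137%). Those 9 were Hspa5, Hsp90b1, Dnajc3, Creld2, Calr, Canx, Pdia6, Syvn1 and Derl3. Hsp90b1 held it at 2 places. The core of the unfolded protein response element, TGACGTGG, stood in Txndc5 alone of the 30, against 193 genes of the table (0.714%). It ends in CGTGG, the reverse complement of the CCACG block, so both motifs can share bases, but none of the 30 windows held both. A cyclic AMP response element, TGACGTCA, stood in none of the 30 windows and in 2.03% of all genes. A match is only a match of letters in this window.

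Promoter windows with an ERSE are shown for the 6 such genes with the smallest p for IL-33 in either genotype, because they show the element these genes share. The sequences are from RefSeq, read in the direction of the gene, and the capitals mark the CCAAT and CCACG blocks of the element or their reverse complements. The windows lie on GRCm38.p6 at chr8:84846882-84847181 (minus strand, Calr), chr14:118937682-118937981 (plus, Dnajc3), chr2:34771840-34772139 (plus, Hspa5), chr10:86705395-86705694 (minus, Hsp90b1), chr19:6046326-6046625 (plus, Syvn1) and chr15:88819396-88819695 (plus, Creld2).
Calr: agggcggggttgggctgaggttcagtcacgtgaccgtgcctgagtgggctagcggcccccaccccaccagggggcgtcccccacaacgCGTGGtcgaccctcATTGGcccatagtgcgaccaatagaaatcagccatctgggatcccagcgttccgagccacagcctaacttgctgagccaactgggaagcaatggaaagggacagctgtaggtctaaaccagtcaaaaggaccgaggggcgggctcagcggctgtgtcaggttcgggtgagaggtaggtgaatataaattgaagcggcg
Dnajc3: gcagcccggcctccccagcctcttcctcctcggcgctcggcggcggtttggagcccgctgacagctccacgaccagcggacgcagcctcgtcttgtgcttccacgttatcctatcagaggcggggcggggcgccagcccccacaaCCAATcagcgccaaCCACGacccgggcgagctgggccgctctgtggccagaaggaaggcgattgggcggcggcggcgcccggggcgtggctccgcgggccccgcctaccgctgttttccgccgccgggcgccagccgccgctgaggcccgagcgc
Hspa5: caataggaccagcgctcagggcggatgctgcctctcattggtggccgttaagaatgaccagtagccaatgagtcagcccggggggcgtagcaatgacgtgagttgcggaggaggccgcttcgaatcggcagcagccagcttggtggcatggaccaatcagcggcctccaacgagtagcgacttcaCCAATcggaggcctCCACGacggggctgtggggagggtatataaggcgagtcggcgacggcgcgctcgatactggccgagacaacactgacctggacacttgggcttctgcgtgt
Hsp90b1: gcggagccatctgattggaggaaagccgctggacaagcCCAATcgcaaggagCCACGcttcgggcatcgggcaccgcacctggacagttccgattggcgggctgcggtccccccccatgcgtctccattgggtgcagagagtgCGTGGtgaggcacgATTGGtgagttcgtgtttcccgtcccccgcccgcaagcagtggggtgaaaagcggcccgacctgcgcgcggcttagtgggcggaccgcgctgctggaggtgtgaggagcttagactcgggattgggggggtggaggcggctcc
Syvn1: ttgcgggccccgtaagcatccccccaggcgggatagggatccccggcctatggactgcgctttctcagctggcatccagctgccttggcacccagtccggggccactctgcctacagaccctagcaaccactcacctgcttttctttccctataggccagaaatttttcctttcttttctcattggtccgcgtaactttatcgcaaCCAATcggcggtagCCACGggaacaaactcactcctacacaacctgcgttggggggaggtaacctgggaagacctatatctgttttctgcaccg
Creld2: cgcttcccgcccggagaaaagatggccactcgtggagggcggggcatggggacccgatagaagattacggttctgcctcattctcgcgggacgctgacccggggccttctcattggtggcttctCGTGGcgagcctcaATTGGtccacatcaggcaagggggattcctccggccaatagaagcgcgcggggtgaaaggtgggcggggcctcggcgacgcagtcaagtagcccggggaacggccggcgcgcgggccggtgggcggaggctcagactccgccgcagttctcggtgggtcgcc

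**Figure D1:**
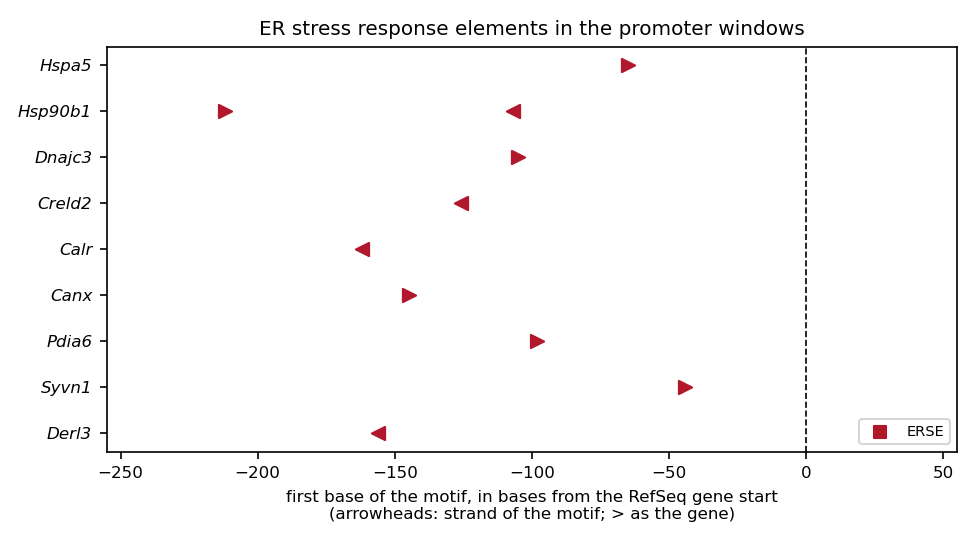
Positions of the ERSE in the promoter windows of 9 genes, in bases from the RefSeq gene start; arrowheads give the strand. All 10 ERSE matches lie before the start, the nearest beginning at -44 in Syvn1 and the farthest at -212 in Hsp90b1.

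Counted from the gene start, the ERSE began at -44 in Syvn1, -65 in Hspa5, -98 in Pdia6, -105 in Dnajc3, -126 in Creld2, -145 in Canx, -156 in Derl3 and -162 in Calr. In Hsp90b1 the matches began at -212 and -107. These distances use the RefSeq starts. In GENCODE M21 Hspa5 begins at 34771970, so its match, at 34772025 to 34772043, lies inside that gene model. The genes that held the element came from 5 of the 7 roles, with none among the searched genes of the sensors or the translocon. Atf6 of the sensors and Sec61a1 of the translocon had no entry and could not be searched.

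The question of the IL-33 comparison was how these genes answered the cytokine in each genotype. IL-33 raised 35 of the 36 in Nbeal2-/- cells and 35 of the 36 in WT cells, and Xbp1 alone fell in both. Of all 15470 genes tested, 27.2% rose and 27.9% fell in Nbeal2-/- (55.1% called), and 28.9% rose and 28.6% fell in WT (57.6% called) (edgeR's quasi-likelihood test, Benjamini-Hochberg adjusted p under 0.05). Without scaling beyond the library total, with limma on log2(RPM + 1), the share of all called genes that rose was 33.8% in Nbeal2-/- and 38.1% in WT, against 49.4% in Nbeal2-/- and 50.3% in WT in the edgeR fit, and 35 of the 36 genes were again higher in Nbeal2-/- and 34 in WT. Without Derl3 the counts were 34 of 35 in each genotype. The median log2 fold change over the 36 genes was 0.85 in Nbeal2-/- and 0.83 in WT, against -0.014 in Nbeal2-/- and 0.0029 in WT over all genes tested. In every one of the 36, Derl3 included, the 4 libraries with IL-33 did not overlap the 4 untreated ones, in either genotype, which held for 50.7% of all genes in Nbeal2-/- and 52.4% in WT. Over all genes every IL-33 library lay above every untreated one for 25% in Nbeal2-/- and 26.6% in WT. Rises of more than 2-fold numbered 13 in each genotype, or 12 without Derl3, where 12.5% of all genes in Nbeal2-/- and 13.1% in WT changed by that much. Without the libraries numbered 1 the counts were again 35 higher and 1 lower in each genotype.

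Together the 36 genes took up 1.81% ± 0.033 of all counted reads in Nbeal2-/- with IL-33 and 1.05% ± 0.023 untreated, and 1.67% ± 0.0299 in WT with IL-33 and 0.893% ± 0.0303 untreated (SD, n = 4 each). The lowest library with IL-33 held 1.62% and the highest without it 1.08%. The share of mitochondrial reads moved with treatment too. It was 2.198% to 2.438% in Nbeal2-/- with IL-33 and 2.88% to 3.16% untreated, and 2.34% to 2.53% in WT with IL-33 and 2.92% to 3.18% untreated, and its part in the result was not tested.

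**Figure D2:**
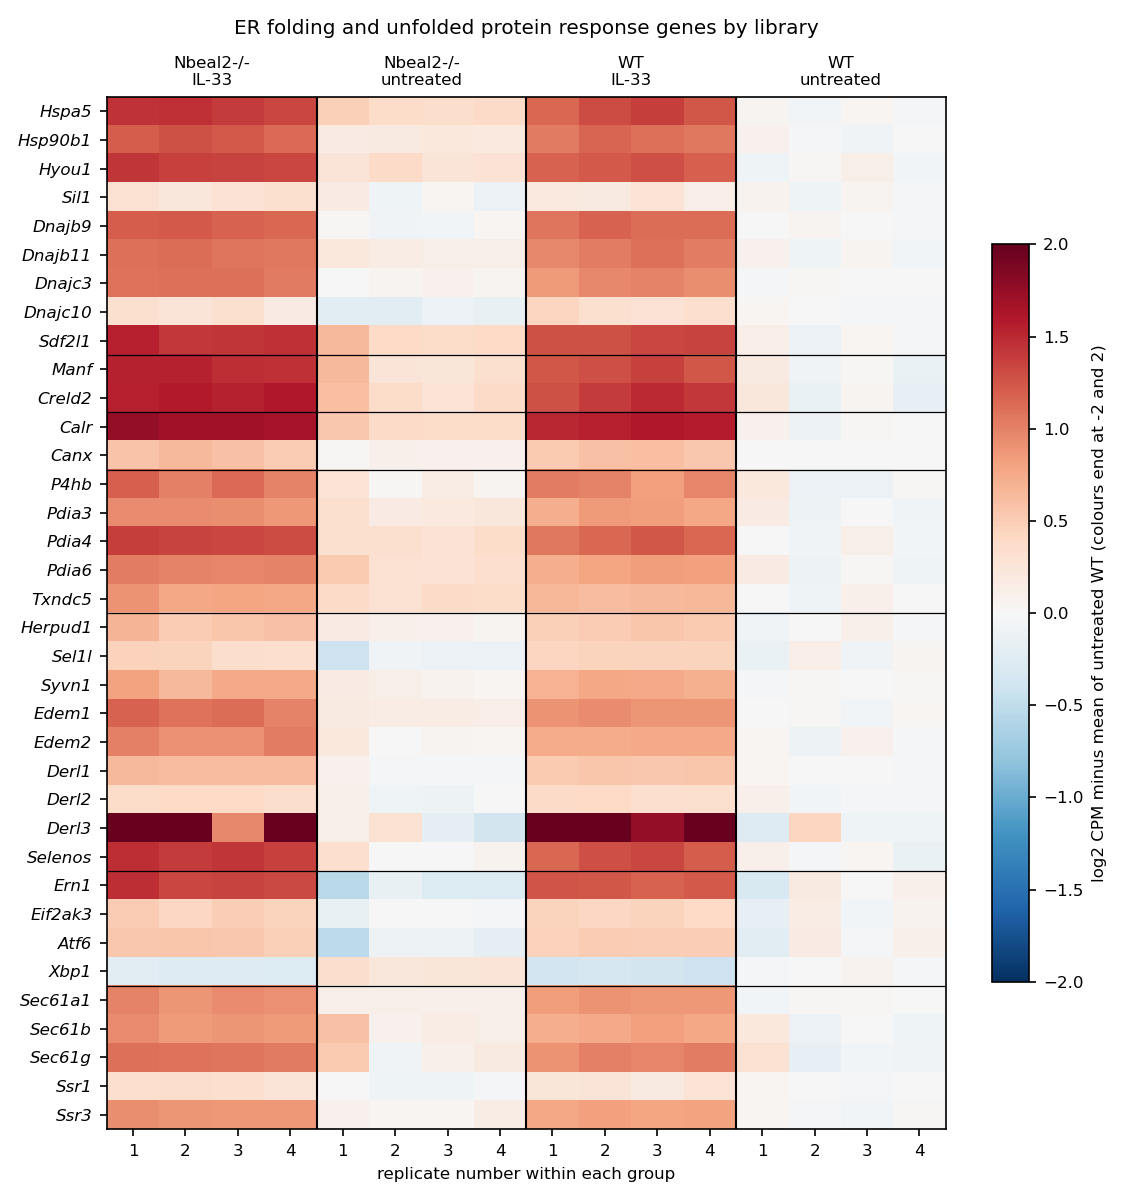
Log2 CPM of each of the 36 genes in each library, minus the mean of the untreated WT libraries; columns are the 4 replicates of each group and black lines separate groups and roles. Every row but Xbp1 is redder in both IL-33 blocks than in the untreated block of its genotype, and Xbp1 is blue there.

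Levels between genes can be compared only per length, as RPKM, which is RPM divided by the length of the gene. On that scale Calr led in all 4 groups, at a mean of 1171 RPKM in Nbeal2-/- with IL-33 and 523 untreated, and 1076 in WT with IL-33 and 389 untreated. Hspa5, Pdia3 and P4hb followed it in changing order, with Hsp90b1 at rank 5 in every group. Ern1, Eif2ak3 and Atf6 stood near the bottom, with group means between 5.34 and 18.9 RPKM. Derl3 was last, with group means between 0.0432 and 0.315 RPKM. The gene whose rank moved farthest was Xbp1, at rank 19 with IL-33 and rank 9 without it in both genotypes.

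Chaperones of the Hsp70 and Hsp90 families and their cofactors rose in 9 of 9 cases in each genotype, with a median log2 fold change of 1.01 in Nbeal2-/- and 1.09 in WT. Hspa5 encodes BiP, the Hsp70 of the ER (chromosome 2, 34771970 to 34777547, plus strand of GRCm38 in GENCODE M21). Hspa5 stood at 2459, 2483, 2382 and 2278 CPM in the 4 Nbeal2-/- libraries with IL-33, against 1256, 1167, 1151 and 1183 CPM in the 4 untreated ones. WT libraries held 1996, 2219, 2347 and 2136 CPM with IL-33 and 940.2, 865, 923 and 885 CPM untreated. Groups were far apart in both genotypes, and the rise was 2.02-fold in Nbeal2-/- (log2 fold change 1.01, SE 0.05, adjusted p = 2.26e-11). In WT it was 2.41-fold (log2 fold change 1.27, SE 0.05, adjusted p = 1.13e-12). Dnajb9 encodes ERdj4, a J-domain cofactor of BiP that also restrains IRE1, and had the smallest p of the role in WT. Dnajb9 stood at 70.6, 71.2, 68.7 and 67.2 CPM in the 4 Nbeal2-/- libraries with IL-33, against 30.9, 28.9, 29.1 and 31.1 CPM in the 4 untreated ones. WT libraries held 63.7, 69.0, 66.2 and 65.8 CPM with IL-33 and 30.3, 31.5, 30.3 and 29.5 CPM untreated. Its rise of 2.31-fold in Nbeal2-/- (adjusted p = 1.07e-13) and 2.18-fold in WT (adjusted p = 2.77e-13) started from nearly the same untreated level in both genotypes.

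Dnajc3, the gene of the J-domain cofactor p58IPK, came next. Dnajc3 stood at 236, 238, 239 and 228 CPM in the 4 Nbeal2-/- libraries with IL-33, against 111, 115, 118 and 116 CPM in the 4 untreated ones. WT libraries held 202, 218, 221 and 211 CPM with IL-33 and 109, 113, 112 and 110.3 CPM untreated. The groups did not overlap, and the fold was 2.05 in Nbeal2-/- and 1.92 in WT (adjusted p = 2.08e-13 in Nbeal2-/- and 7.13e-13 in WT). The other large rises of the role were Hsp90b1, which encodes GRP94, at 2.04-fold in Nbeal2-/- and 2.12-fold in WT, and Hyou1, a nucleotide exchange factor of BiP, at 2.10-fold in Nbeal2-/- and 2.32-fold in WT. Sdf2l1, part of a complex with ERdj3, rose 2.01-fold in Nbeal2-/- and 2.48-fold in WT. Dnajb11, the gene of ERdj3 itself, rose 1.92-fold in Nbeal2-/- and 2.04-fold in WT. The smallest rises were those of Dnajc10, a J-domain disulfide reductase, at 1.35-fold in Nbeal2-/- and 1.27-fold in WT, and of Sil1, another exchange factor of BiP. Sil1 rose 1.22-fold in Nbeal2-/- and 1.14-fold in WT, and its rise in WT had an adjusted p of 0.00696 that became 0.0923 with limma on log2(RPM + 1) and 0.0506 without WT IL-33 replicate 3.

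Both secreted ER stress proteins rose. Manf encodes a small ER protein released by stressed cells. Manf stood at 470.4, 471, 449 and 444 CPM in the 4 Nbeal2-/- libraries with IL-33, against 253, 193, 191 and 201 CPM in the 4 untreated ones. WT libraries held 381, 393, 416 and 383 CPM with IL-33 and 182, 153, 164 and 148 CPM untreated. Nbeal2-/- library 1 was the highest of the untreated ones, yet lay far below every library with IL-33. The rise was 2.19-fold in Nbeal2-/- (adjusted p = 1.92e-09) and 2.43-fold in WT (adjusted p = 3.72e-10). Creld2 encodes a cysteine-rich ER protein. Creld2 stood at 232, 237, 229 and 239.7 CPM in the 4 Nbeal2-/- libraries with IL-33, against 119.6, 101, 95.0 and 102 CPM in the 4 untreated ones. WT libraries held 191, 208, 222 and 209.8 CPM with IL-33 and 92.5, 71.9, 81.9 and 70.6 CPM untreated. It rose 2.24-fold in Nbeal2-/- (adjusted p = 1.32e-09) and 2.62-fold in WT (adjusted p = 1.33e-10), and library 1 was again the highest untreated library of each genotype.

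The lectin chaperones rose by unequal amounts. Calr encodes calreticulin, the soluble lectin that also stores calcium (chromosome 8, 84841850 to 84846934, minus strand). Calr stood at 3664, 3461, 3478 and 3418 CPM in the 4 Nbeal2-/- libraries with IL-33, against 1578, 1416, 1407 and 1394 CPM in the 4 untreated ones. WT libraries held 3075, 3206, 3300 and 3230 CPM with IL-33 and 1154, 1009, 1104 and 1081 CPM untreated. The IL-33 and untreated libraries were far apart in both genotypes, and Calr had the smallest p of the 36 genes in WT. Its rise was 2.42-fold in Nbeal2-/- (log2 fold change 1.27, SE 0.05, adjusted p = 7.71e-13). In WT it was 2.95-fold (log2 fold change 1.56, SE 0.05, adjusted p = 5.92e-14). Canx encodes calnexin, the membrane-bound relative. Canx stood at 808, 849.7, 819 and 778 CPM in the 4 Nbeal2-/- libraries with IL-33, against 554, 581, 576 and 581 CPM in the 4 untreated ones. WT libraries held 782, 820.2, 822 and 792 CPM with IL-33 and 541, 546, 546 and 546 CPM untreated. The groups were apart but closer, at 1.42-fold in Nbeal2-/- (adjusted p = 3.94e-09) and 1.48-fold in WT (adjusted p = 9.26e-10).

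All 5 disulfide isomerases rose in both genotypes. Pdia4 encodes ERp72. Pdia4 stood at 316, 309, 305 and 299 CPM in the 4 Nbeal2-/- libraries with IL-33, against 152, 151, 149 and 156 CPM in the 4 untreated ones. WT libraries held 252, 270.1, 288 and 269 CPM with IL-33 and 122, 115, 132 and 116 CPM untreated. The groups did not overlap, at 2.03-fold in Nbeal2-/- (adjusted p = 7.91e-12) and 2.22-fold in WT (adjusted p = 1.46e-12). Txndc5 encodes ERp46. Txndc5 stood at 186, 170.5, 173 and 171 CPM in the 4 Nbeal2-/- libraries with IL-33, against 130.4, 124, 130.0 and 129 CPM in the 4 untreated ones. WT libraries held 158, 154, 156 and 159 CPM with IL-33 and 99.8, 94.3, 107 and 99.3 CPM untreated. It rose 1.36-fold in Nbeal2-/- (adjusted p = 6.33e-08) and 1.57-fold in WT (adjusted p = 4.95e-10), with no overlap between groups. P4hb, the gene of the founding protein disulfide isomerase, rose 1.94-fold in Nbeal2-/- and 1.93-fold in WT. Pdia3, whose product ERp57 works with the lectin chaperones, rose 1.62-fold in Nbeal2-/- and 1.74-fold in WT, and Pdia6 rose 1.55-fold in Nbeal2-/- and 1.73-fold in WT.

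Degradation genes rose in 9 of 9 cases in each genotype, a count that includes Derl3, whose test is set aside below. Edem1 encodes a mannose-trimming lectin that marks misfolded glycoproteins for removal. Edem1 stood at 465, 436, 442 and 409 CPM in the 4 Nbeal2-/- libraries with IL-33, against 232, 228, 226 and 225 CPM in the 4 untreated ones. WT libraries held 383, 394, 377 and 378 CPM with IL-33 and 205, 208, 196 and 209 CPM untreated. The fold was 1.92 in Nbeal2-/- and 1.87 in WT (adjusted p = 3.09e-12 in Nbeal2-/- and 5.02e-12 in WT), and the groups lay well apart. Syvn1 encodes Hrd1, the ubiquitin ligase of the pathway. Syvn1 stood at 112, 101, 108 and 108 CPM in the 4 Nbeal2-/- libraries with IL-33, against 71.9, 69.4, 67.6 and 66.2 CPM in the 4 untreated ones. WT libraries held 104, 109, 108 and 105 CPM with IL-33 and 62.2, 65.0, 64.5 and 64.9 CPM untreated. Here the fold was 1.56 in Nbeal2-/- and 1.66 in WT (adjusted p = 3.07e-10 in Nbeal2-/- and 5.42e-11 in WT). Selenos, a selenoprotein that links derlins to the p97 ATPase, rose most among the well-counted genes of the role, 2.48-fold in Nbeal2-/- and 2.37-fold in WT. Edem2, which starts mannose trimming, rose 1.84-fold in Nbeal2-/- and 1.68-fold in WT. Sel1l, the adaptor of Hrd1, rose 1.49-fold in Nbeal2-/- and 1.36-fold in WT. Herpud1, another part of the Hrd1 complex, rose 1.40-fold in Nbeal2-/- and 1.43-fold in WT.

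The 3 derlins, membrane proteins of the degradation channel, differed in level and in response. Derl1 rose 1.55-fold in Nbeal2-/- and 1.45-fold in WT, and Derl2 1.31-fold in Nbeal2-/- and 1.28-fold in WT. Derl3, which in other tissues marks professional secretory cells, was barely present. Its raw counts were 34, 26, 9 and 26 in the Nbeal2-/- libraries with IL-33, against 5, 7, 3 and 2 untreated. WT libraries held 40, 28, 20 and 30 counts with IL-33 and 3, 6, 3 and 4 untreated. The libraries with IL-33 held more in both genotypes, but the gene passed the low-count filter only through them, so its test is not used. Its fitted log2 fold change of 2.73 in Nbeal2-/- and 2.91 in WT was 0.50 in Nbeal2-/- and 0.58 in WT with limma on log2(RPM + 1), a pseudocount above its level. Its level with IL-33 stayed at 0.565 ± 0.207 CPM in Nbeal2-/- and 0.648 ± 0.0867 CPM in WT (SD, n = 4 each), and Nbeal2-/- replicate 3 with IL-33 was far below the other 3.

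All 3 sensors rose and Xbp1 fell. Ern1 encodes IRE1 (chromosome 11, 106394650 to 106487852, minus strand). Ern1 stood at 173, 156, 159 and 155 CPM in the 4 Nbeal2-/- libraries with IL-33, against 42.7, 56.3, 51.5 and 51.2 CPM in the 4 untreated ones. WT libraries held 148, 147, 141 and 146 CPM with IL-33 and 50.2, 70.4, 62.7 and 66.9 CPM untreated. It rose 3.19-fold in Nbeal2-/- (log2 fold change 1.67, SE 0.09, adjusted p = 4.99e-11). In WT the rise was 2.33-fold (log2 fold change 1.22, SE 0.09, adjusted p = 2.67e-09), and among genes over 1 CPM Ern1 had the largest fold of the 36 in Nbeal2-/-. Atf6 encodes the sensor that is cut in the Golgi. Atf6 stood at 80.1, 80.9, 80.0 and 76.4 CPM in the 4 Nbeal2-/- libraries with IL-33, against 38.3, 51.3, 51.5 and 48.1 CPM in the 4 untreated ones. WT libraries held 76.2, 78.6, 77.5 and 77.2 CPM with IL-33 and 46.8, 61.5, 53.9 and 59.1 CPM untreated. The groups did not overlap, at 1.68-fold in Nbeal2-/- (adjusted p = 8.33e-07) and 1.40-fold in WT (adjusted p = 9.58e-05). Eif2ak3 encodes PERK. Eif2ak3 stood at 59.2, 55.6, 58.5 and 56.4 CPM in the 4 Nbeal2-/- libraries with IL-33, against 37.3, 41.4, 41.8 and 40.4 CPM in the 4 untreated ones. WT libraries held 56.4, 55.3, 56.4 and 54.8 CPM with IL-33 and 36.9, 46.2, 39.9 and 43.7 CPM untreated. Its rise was smaller, 1.43-fold in Nbeal2-/- (adjusted p = 8.47e-07) and 1.34-fold in WT (adjusted p = 8.5e-06). In both genotypes library 1 was the lowest untreated library for all 3 sensors.

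Xbp1, the substrate of IRE1, went the other way (chromosome 11, 5520659 to 5525893, plus strand). Xbp1 stood at 225, 219, 218 and 217 CPM in the 4 Nbeal2-/- libraries with IL-33, against 334, 306, 309 and 313 CPM in the 4 untreated ones. WT libraries held 202, 207, 204 and 197 CPM with IL-33 and 255, 264, 274 and 255 CPM untreated. Every library with IL-33 lay below every untreated library of its genotype. Transcripts fell by 0.52 on the log2 scale in Nbeal2-/- (SE 0.04, adjusted p = 4.06e-09) and fell by 0.37 in WT (SE 0.04, adjusted p = 2.97e-07). The counts are per gene and do not separate the spliced from the unspliced messenger.

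**Figure D3:**
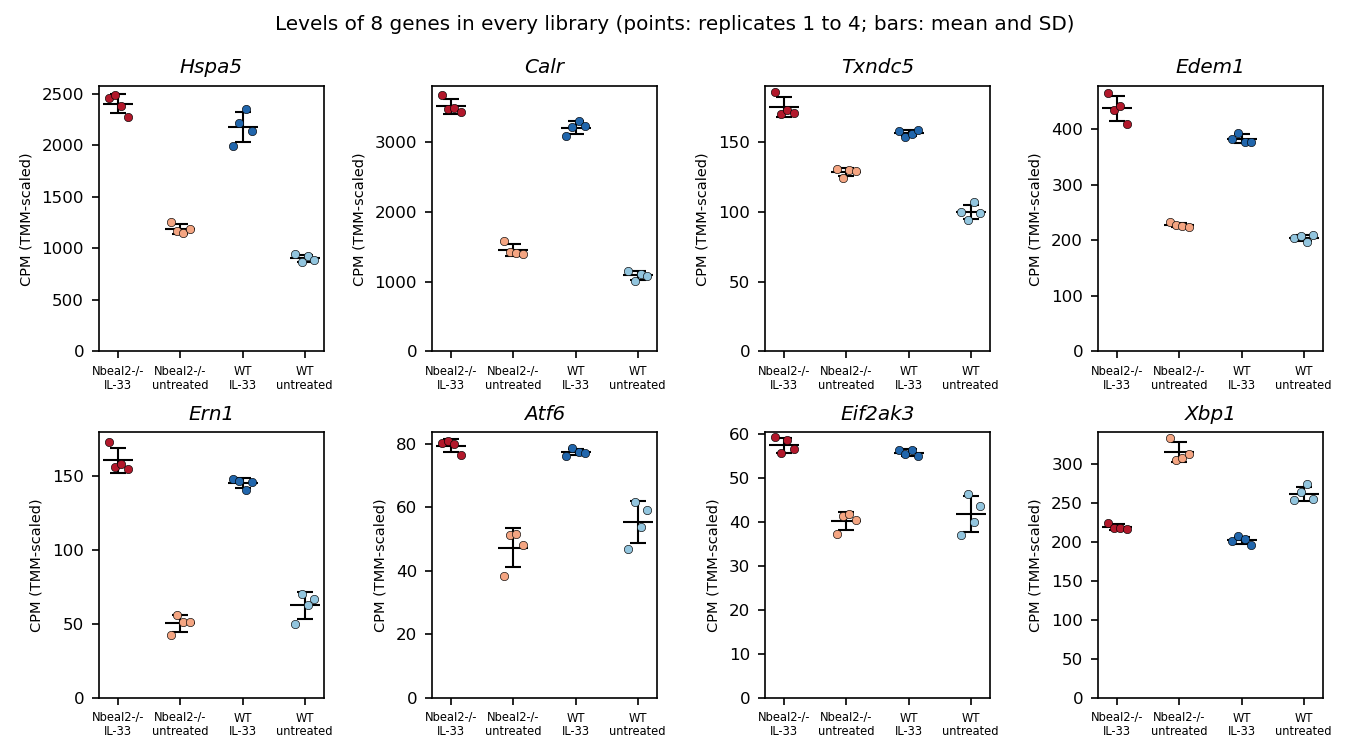
TMM-scaled CPM of 8 genes in every library, with the 4 groups on the horizontal axis; points are replicates 1 to 4 from left to right and bars are mean and SD. Hspa5, Calr, Txndc5, Edem1, Ern1, Atf6 and Eif2ak3 stand higher in both IL-33 groups than untreated, and Xbp1 stands lower, between 197 and 225 CPM with IL-33 and between 255 and 334 CPM without it.

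Translocon genes rose in 5 of 5 cases in each genotype. Sec61a1 encodes the channel itself. Sec61a1 stood at 543, 503, 523 and 515 CPM in the 4 Nbeal2-/- libraries with IL-33, against 297, 294, 292 and 293 CPM in the 4 untreated ones. WT libraries held 488, 508, 496 and 499 CPM with IL-33 and 263, 276, 278 and 274 CPM untreated. The fold was 1.77 in Nbeal2-/- and 1.82 in WT (adjusted p = 3.39e-12 in Nbeal2-/- and 1.6e-12 in WT), with tight replicates. Ssr3 encodes a subunit of the translocon-associated protein complex. Ssr3 stood at 493, 479, 471 and 471 CPM in the 4 Nbeal2-/- libraries with IL-33, against 275, 268, 266 and 288 CPM in the 4 untreated ones. WT libraries held 441, 459.8, 446 and 453 CPM with IL-33 and 265, 256, 251 and 265 CPM untreated. It rose 1.75-fold in Nbeal2-/- (adjusted p = 9.25e-12) and 1.74-fold in WT (adjusted p = 1e-11). Of the small Sec61 subunits, Sec61b rose 1.56-fold in Nbeal2-/- and 1.70-fold in WT, and Sec61g 1.83-fold in Nbeal2-/- and 1.96-fold in WT. Ssr1, from the same complex as Ssr3, rose only 1.29-fold in Nbeal2-/- and 1.18-fold in WT.

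**Figure D4:**
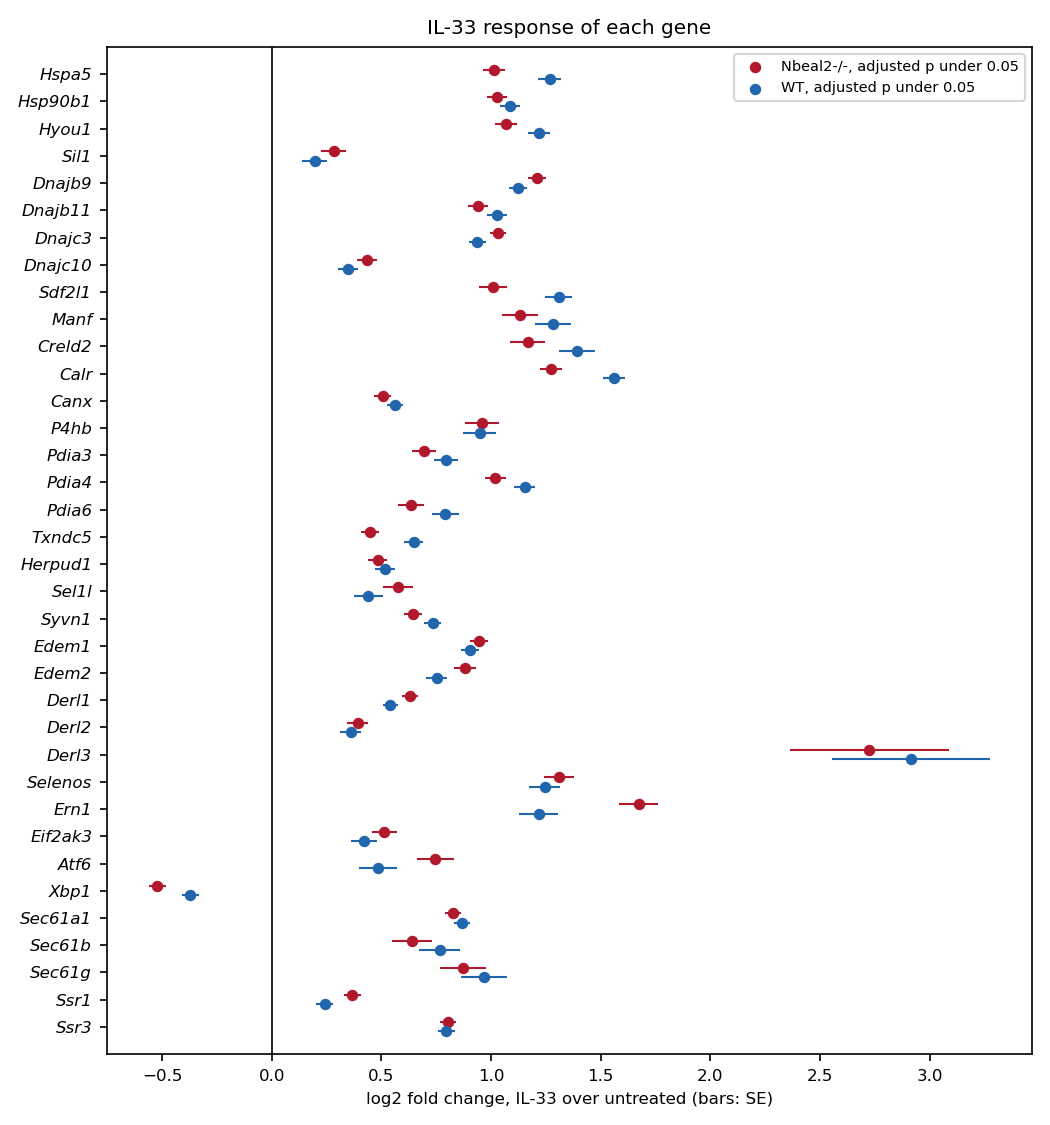
Log2 fold change of IL-33 over untreated for each of the 36 genes, in Nbeal2-/- (red) and WT (blue); bars are SE from the edgeR fit and filled points passed an adjusted p of 0.05. All points but those of Xbp1 lie above 0, and all passed; Derl3 has the widest bars.

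The 9 genes with an ERSE in the window had a median log2 fold change of 1.03 in Nbeal2-/- and 1.09 in WT, Derl3 included. Without Derl3 the 2 middle values in Nbeal2-/- were 1.01 (Hspa5) and 1.03 (Hsp90b1). In WT the 2 middle values without Derl3 were 0.94 (Dnajc3) and 1.09 (Hsp90b1). The ranges were 0.51 to 2.73 in Nbeal2-/- and 0.56 to 2.91 in WT. Derl3, whose test is not used, was the highest, and next came Calr, at 1.27 in Nbeal2-/- and 1.56 in WT. The 21 with an entry but no ERSE had a median of 0.80 in each genotype, with ranges of -0.52 to 1.67 in Nbeal2-/- and -0.37 to 1.31 in WT. The ranges overlap widely, and the values are a description. The promoter table held the element for 28 other genes, and 10 of these passed the low-count filter. Of the 10, 2 rose and 3 fell in Nbeal2-/-, and 2 rose and 2 fell in WT. These counts are near the shares of all genes tested. Those were 27.2% higher and 27.9% lower in Nbeal2-/-, and 28.9% higher and 28.6% lower in WT. Dnajb9, Sdf2l1, Pdia4, Selenos and Ern1 rose more than 2-fold in both genotypes and held no exact match in the window.

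Most other genes listed for the pathway also rose with IL-33. Of 104 further genes on 6 lists, chosen with earlier results of these data known, 102 were tested. In Nbeal2-/- 82 rose, 4 fell and 16 did not pass, with a median log2 fold change of 0.48. In WT 84 rose, 4 fell and 14 did not pass, with a median of 0.49. For these counts and those of each list below, the shares over all genes tested serve as background. They were 27.2% higher and 27.9% lower in Nbeal2-/-, and 28.9% higher and 28.6% lower in WT. Of 19 genes of transport from the ER to the Golgi 18 rose and 1 fell in each genotype. Sec23b, a coat protein of the vesicles that leave the ER, averaged 188 CPM in Nbeal2-/- with IL-33 and 94.2 CPM untreated, and 180 CPM in WT with IL-33 and 88.5 CPM untreated (adjusted p = 7.16e-14 in Nbeal2-/- and 5.17e-14 in WT). Of 18 genes of signal peptidase and protein targeting 17 rose in Nbeal2-/- and 16 in WT. The smallest p of the list belonged to Srpr, the signal recognition particle receptor, at 1.94-fold in Nbeal2-/- and 1.89-fold in WT. Of 16 genes of N-glycosylation and the calnexin cycle 12 rose in Nbeal2-/- and 14 in WT, with none lower. Stt3a, a catalytic subunit of the oligosaccharyltransferase, rose 1.93-fold in Nbeal2-/- and 1.89-fold in WT, and its partner Rpn1 1.75-fold in Nbeal2-/- and 1.95-fold in WT.

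Of 16 tested genes of oxidative folding and proline isomerisation 13 rose and 1 fell in each genotype, with Erp44, which retains unfinished proteins in the early secretory pathway, up 1.93-fold in Nbeal2-/- and 1.79-fold in WT. Of 17 further degradation genes 14 rose and 1 fell in Nbeal2-/-, and 13 rose and 1 fell in WT. Vcp, the gene of the p97 ATPase, rose 1.67-fold in Nbeal2-/- and 1.69-fold in WT. Other signalling genes of the response were the most mixed, with 8 higher and 1 lower of 16 in Nbeal2-/- and 10 higher and 1 lower in WT. Their smallest p belonged to Traf2, an adaptor that binds IRE1 but also tumour necrosis factor receptors, at 2.01-fold in Nbeal2-/- and 2.17-fold in WT. Atf4, the transcription factor translated when PERK is active, had a log2 fold change of 0.10 in Nbeal2-/- (adjusted p = 0.245) and 0.32 in WT (adjusted p = 0.000515). Its target Ddit3, the gene of CHOP, had 0.01 in Nbeal2-/- (adjusted p = 0.919) and 0.16 in WT (adjusted p = 0.096). Atf4 and Ddit3 were picked for naming after their values were seen. A response differing between the genotypes was called for 0 of the 102 tested genes of the 6 lists, Atf4 and Ddit3 included. Of all genes tested 4.56% were called for it.

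The next question was whether Nbeal2-/- cells differed from WT cells in these genes before any treatment. The genes called higher included 5 of the 9 Hsp70 and Hsp90 chaperones and cofactors and 4 of the 5 disulfide isomerases. Of the 36 genes 15 were called higher and 4 lower, and 17 did not pass. Of all genes tested 18.4% were higher and 17.5% lower. The median log2 fold change of the 36 was 0.11, against -0.0081 over all genes. No gene of the 36 was called with more than 2-fold, against 3.37% of all genes. No difference among the 36 reached 1.5-fold either, a limit that was not counted over all genes. In 18 of the 36 every Nbeal2-/- library lay above every WT library, which held for 14.3% of all genes, and in 1 every Nbeal2-/- library lay below, against 13.9%.

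The 4 differences with the smallest p were those of Txndc5, Calr, Hspa5 and Sdf2l1. Txndc5 averaged 128 ± 2.97 CPM in untreated Nbeal2-/- and 100.1 ± 5.10 CPM in untreated WT (SD, n = 4 each), with no overlap (1.28-fold, log2 fold change 0.36, SE 0.04, adjusted p = 9.01e-06). Calr averaged 1449 ± 86.4 CPM in untreated Nbeal2-/- and 1087 ± 60.3 CPM in untreated WT (1.33-fold, log2 fold change 0.41, SE 0.05, adjusted p = 1.36e-05). For Hspa5 the means were 1189 ± 46.3 CPM in Nbeal2-/- and 903 ± 34.5 CPM in WT (1.32-fold, log2 fold change 0.40, SE 0.05, adjusted p = 2.58e-05). Sdf2l1 had 172, 144, 142 and 144 CPM in the untreated Nbeal2-/- libraries and 119.8, 101, 113 and 107 CPM in the untreated WT libraries. All 4 Nbeal2-/- libraries were higher, replicate 1 most of all, and the fold was 1.37 (log2 fold change 0.45, SE 0.06, adjusted p = 5.01e-05).

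By role, 5 of 9 chaperones and cofactors were higher and 1, Dnajc10, was lower. Both secreted proteins were higher, at 1.32-fold for Creld2 and 1.30-fold for Manf. Of 5 isomerases 4 were higher, with Pdia6 at 1.28-fold and Pdia4 at 1.25-fold, and P4hb did not pass (adjusted p = 0.236). Of 9 degradation genes only Edem1 was higher, at 1.11-fold, and Sel1l was lower (adjusted p = 0.0487). Xbp1 was higher, at 315 ± 12.7 CPM in Nbeal2-/- and 262 ± 9.24 CPM in WT (1.20-fold, adjusted p = 8.34e-05). Of the 3 sensors, Ern1 was lower, at 50.4 ± 5.65 CPM in Nbeal2-/- and 62.5 ± 8.83 CPM in WT (log2 fold change -0.31, adjusted p = 0.0122), and so was Atf6 (log2 fold change -0.23, adjusted p = 0.0476), while Eif2ak3 did not pass (log2 fold change -0.05, adjusted p = 0.532). Libraries overlapped for all 3 sensors and for Sel1l. Of the translocon genes only Sec61a1 was called, at 1.08-fold.

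Without the 4 libraries of 1 number, the counts were 16 higher and 4 lower without number 1, 13 and 1 without number 2, 12 and 1 without number 3, and 12 and 1 without number 4. Over 27 alternatives, of the genes called lower Dnajc10 was called in 26, Ern1 in 23, Sel1l in 9 and Atf6 in 7. The lower calls also numbered 1 with only the untreated libraries in the fit or without WT untreated replicate 2 alone. They numbered 2 with limma or without 1 of 9 libraries, namely replicate 2 or 3 of Nbeal2-/- with IL-33, replicate 1 or 4 of Nbeal2-/- untreated, any replicate of WT with IL-33 and replicate 4 of WT untreated. Macrophage markers summed higher and mast cell markers lower in Nbeal2-/- than in WT, with the ranges given above, and their part in the result was not tested.

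With IL-33 present, 1 cofactor of BiP, 3 isomerases and 2 degradation lectins were higher in Nbeal2-/-. Of the 36 genes 6 were called higher in Nbeal2-/- and 0 lower, while 5.49% of all genes were higher and 5.69% lower. Without adjustment 18 of the 36 were higher and 0 lower at a p under 0.05, where 13.1% of all genes were higher and 12.1% lower, and DESeq2 also called 0 lower. In 19 of the 36 every Nbeal2-/- library lay above every WT library, which held for 12% of all genes. The median log2 fold change was 0.12, against 0.0039 over all genes. Edem1 had the smallest p, at 438 ± 23.0 CPM in Nbeal2-/- with IL-33 and 383 ± 7.96 CPM in WT with IL-33 (SD, n = 4 each, 1.14-fold, adjusted p = 0.00504). Edem2 held 134, 125, 126 and 135 CPM in the Nbeal2-/- libraries and 112, 111, 113 and 112 CPM in the WT libraries. The groups were separate, and the fold was 1.16 (adjusted p = 0.008). Pdia4 was 1.14-fold higher (adjusted p = 0.0161), Dnajc3 1.10-fold (adjusted p = 0.0178), Txndc5 1.12-fold (adjusted p = 0.0181) and Pdia6 1.15-fold (adjusted p = 0.0375).

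Edem1, Pdia4, Pdia6 and Txndc5 were higher in both conditions, which is 26.7% of the genes called higher untreated and 66.7% of those called higher with IL-33. None of the sensors was called with IL-33. The count of 6 was not stable: it was 17 when only the IL-33 libraries were fitted, 14 with DESeq2 and 12 without Nbeal2-/- untreated replicate 1, and 2 without Nbeal2-/- IL-33 replicate 1. It was 3 without WT IL-33 replicate 1. Without all 4 libraries of 1 number it was 5 for number 1, 2 for number 2, 2 for number 3 and 1 for number 4. Replicates lay closer together with IL-33: the median coefficient of variation over the genes other than Derl3 was 2.97% in Nbeal2-/- with IL-33 and 4.39% untreated, and 2.93% in WT with IL-33 and 5.38% untreated.

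**Figure D5:**
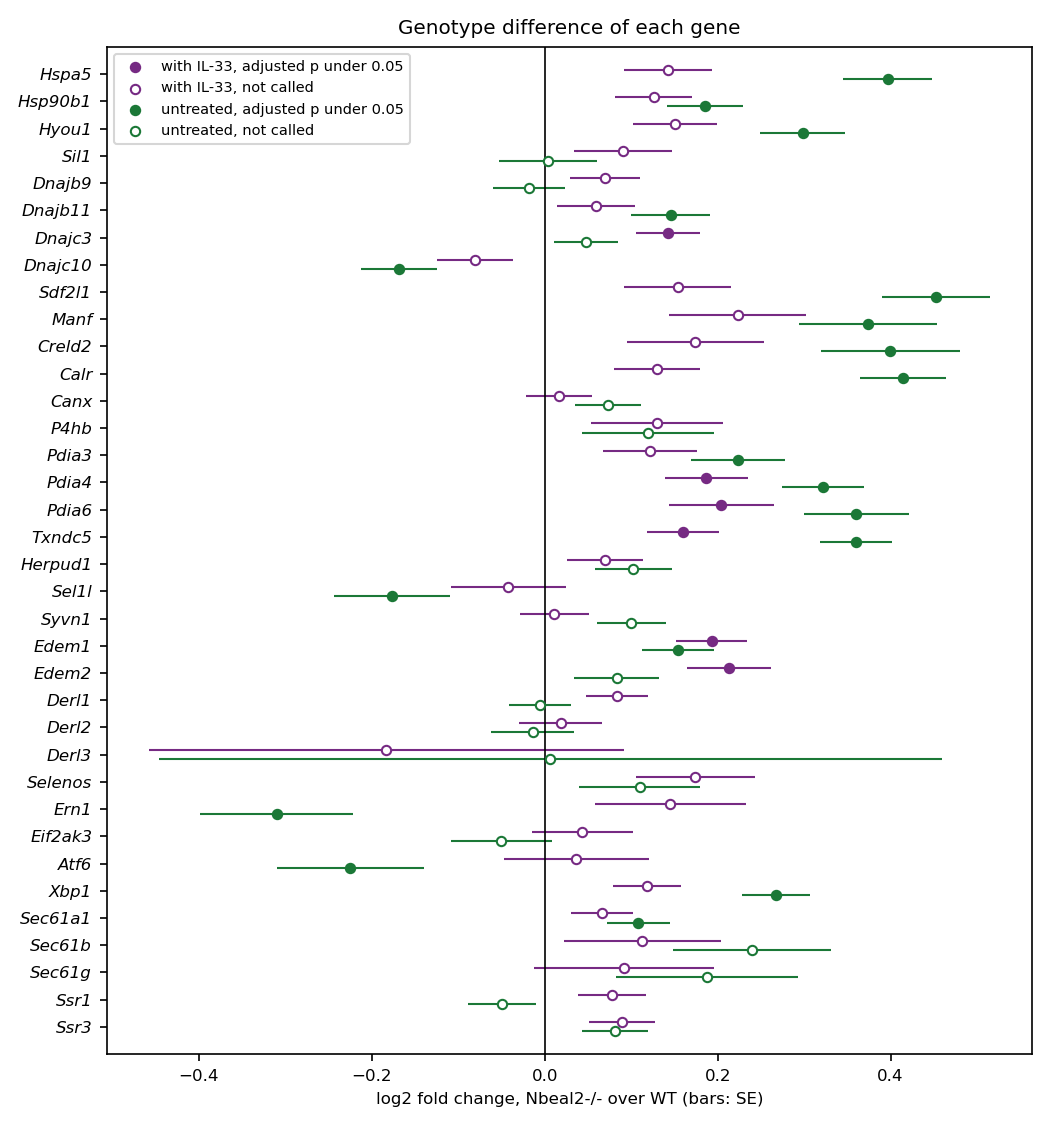
Log2 fold change of Nbeal2-/- over WT for each of the 36 genes, with IL-33 (purple) and untreated (green); bars are SE from the edgeR fit, filled points passed an adjusted p of 0.05 and open points did not. Hspa5, Sdf2l1, Calr and Txndc5 lie to the right of 0, farther out without IL-33, while Ern1 and Atf6 lie to the left only when untreated.

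The last comparison asked whether the response to IL-33 itself differed between the genotypes. A differing response was called for 2 of the 36 genes, 1 in each direction, a share close to the 4.56% of all genes. Of all genes 2.01% had a stronger and 2.55% a weaker response in Nbeal2-/-. The median difference over the 36 was -0.049 on the log2 scale, against 0.013 over all genes. Calr responded less in Nbeal2-/-. Its log2 response by culture was 1.22, 1.29, 1.31 and 1.29 in Nbeal2-/- and 1.41, 1.67, 1.58 and 1.58 in WT, pairing libraries by number within a genotype. Culture here means such a pair, which the labels do not state. Every Nbeal2-/- culture lay below every WT culture, with a difference of -0.28 (SE 0.07, adjusted p = 0.0275). Cultures stood apart in this direction for 5 of the 36 genes and in the opposite direction for 1. That share was not counted over all genes. Ern1 responded more in Nbeal2-/-, at 2.02, 1.47, 1.62 and 1.595 by culture, against 1.56, 1.06, 1.17 and 1.12 in WT. The cultures overlapped through culture 1 of WT, and the difference was 0.46 (SE 0.12, adjusted p = 0.0452).

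Both calls were close to the threshold. With the culture as a block the adjusted p was 0.0288 for Calr and 0.0641 for Ern1, and Sdf2l1 was called in addition (difference -0.30, adjusted p = 0.0321). Without the libraries numbered 1, 7 genes were called: Ern1 (0.45, adjusted p = 0.000814) and Atf6 (0.24, 0.0413) with the stronger response in Nbeal2-/-, and Calr (-0.31, 0.00285), Sdf2l1 (-0.31, 0.00346), Hspa5 (-0.30, 0.00938), Creld2 (-0.27, 0.0318) and Txndc5 (-0.21, 0.0383) with the weaker one. Without the libraries numbered 2, 3 or 4, 0 genes were called, with an adjusted p for Calr of 0.199, 0.171 and 0.217 and for Ern1 of 0.138, 0.223 and 0.285 in that order. Over 27 alternatives Calr was called in 16, with an adjusted p of 0.00139 to 0.217, and Ern1 in 6, with an adjusted p of 0.000814 to 0.285. Both calls ended without any 1 of 8 libraries: replicate 2, 3 or 4 of Nbeal2-/- with IL-33, the same replicates of WT with IL-33, and WT untreated replicate 2 or 4. Of the other 8, Ern1 passed only without Nbeal2-/- untreated replicate 2 or WT untreated replicate 1. Leaving out WT untreated replicate 1 alone gave 1 stronger and 3 weaker responses, and the weaker ones numbered 2 without replicate 1 of either IL-33 group or without WT untreated replicate 3. In Xbp1 every Nbeal2-/- culture fell more than every WT culture, with a difference of -0.15 that did not pass (adjusted p = 0.143). Xbp1 is, like Calr, among the 5 of the 36 genes whose cultures stood apart in that direction, a share not counted over all genes.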

How the data were processed

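Total RNA of 16 libraries was enriched for poly(A) and made into directional libraries, per the labels' protocols. The submitters' processing notes name bcl2fastq 2.20.0.422, featureCounts 1.6.5 and build GRCm38. The labels name no aligner, annotation or strand setting of the counting, so reads of overlapping antisense genes may not be separated. The authors deposited counts, RPM and RPKM per gene in 1 table. The deposited RPM equal the counts scaled by the library total to within 4.91e-11, and the deposited RPKM equal RPM divided by 1 length per gene. Counts were used for tests, RPM for marker sums and RPKM for levels between genes.

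The counts were tested with edgeR 4.0.16 (R 4.3.3): filterByExpr over the 4 groups, TMM, 1 quasi-likelihood fit with 4 group means over 16 libraries, 5 contrasts, and Benjamini-Hochberg adjustment over 15470 genes with a threshold of 0.05. The procedure was tried on simulated counts for the IL-33 contrast in WT only, with few changed genes and no effect shared by libraries of a number. The other contrasts were not simulated. CPM are scaled by TMM. Libraries of a group differed beyond counting noise (smallest chi-square per degree of freedom 5.34), so each was counted once. Alternatives were DESeq2 1.42.0, RLE, no filter, limma 3.58.1 on log2(RPM + 1) and log2(RPM + 0.1), only the groups compared, a replicate block, and leaving out libraries. Within each genotype, treated and untreated libraries with the same number deviated together (r from 0.288 to 0.369 in WT and from 0.171 to 0.34 in Nbeal2-/-). Each matched its own number best, so they were taken as pairs and called cultures. The labels do not state such a pairing, and what a shared number stands for was not tested. Fold changes by culture use log2(CPM + 0.1). For Ddit3, which has several rows, the row with the highest total was used.

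The 36 genes, the pathway lists and the markers were chosen with earlier results of these data known. Genes given library by library were, for each role, the 2 with the smallest p for IL-33 in WT, the sensors with Xbp1, the 4 with the smallest p in each genotype comparison, and those with a differing response. Derl3 was added for its low counts, after its values were seen. Promoter windows were matched by symbol, and positions are from GENCODE M21.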

Additional observations from a re-analysis of the deposited data

Results flagged for a closer look

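In 10 of 144 groups of 4 libraries 1 library of a gene stood apart from the other 3 by more than Dixon's 95% limit on the gap over the group's range, and chance alone flags about 1 group in 20. Replicate 1 of untreated Nbeal2-/- stood apart for 5 genes, each time as the highest. It had 172 CPM of Sdf2l1, where the other 3 had 142 to 144 CPM, and 253 CPM of Manf, where they had 191 to 201 CPM. It had 1578 CPM of Calr against 1394 to 1416 CPM in the other 3, 154 CPM of Derl1 against 141 to 142 CPM, and 114 CPM of Sec61b against 80.6 to 84.5 CPM. In Nbeal2-/- with IL-33, replicate 1 had 228 CPM of Derl1 against 222 to 223 CPM in the others. Replicate 4 of the same group had 1410.3 CPM of Pdia3 against 1478 to 1491 CPM, and 462 CPM of Ssr1 against 484 to 488 CPM. Replicate 3 of that group had 0.257 CPM of Derl3 against 0.641 to 0.696 CPM, a matter of few counts. In untreated WT, replicate 1 had 541 CPM of Canx against 546 CPM in each of the other 3, a gap that is small in size.

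The response to IL-33 differed between the genotypes for Calr, by -0.28 on the log2 scale, and for Ern1, by 0.46, both past an adjusted p of 0.05 in edgeR's test of the difference. In Nbeal2-/- the rise of Calr was the smaller and that of Ern1 the larger. Both calls were close to the threshold and unstable. Over 27 alternatives Calr was called in 16, with an adjusted p of up to 0.217, and Ern1 in 6, with up to 0.285.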

How the results depend on the processing

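The IL-33 counts of 35 higher and 1 lower held in both genotypes under every alternative run, except that Sil1 in WT was lost with limma and without WT IL-33 replicate 3, which left 34 higher. No called fold change reversed. The sign turned 75 times over 14 fold changes that were called neither in the edgeR fit nor in the alternative. Of the values under other settings 1269 kept their call, 42 gained one and 20 lost one. With libraries left out 3459 kept it, 31 gained one and 110 lost one. The causes were not tested.

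Among genotype comparisons the 4 genes lower in untreated Nbeal2-/- became 2 without the low-count filter or with limma at either pseudocount, and 1 with only the groups compared. With IL-33 the 6 higher genes became 14 with DESeq2 and 17 with only the groups compared. For the difference of the responses, the 1 gene with a stronger and 1 with a weaker response became 2 and 4 with DESeq2, and 0 and 4 with limma at either pseudocount. Without the low-count filter none responded more strongly (0). Leaving out libraries gave 34 to 35 higher and 1 lower for IL-33 in WT, and 35 and 1 in Nbeal2-/-. It gave 12 to 17 higher and 1 to 4 lower in untreated Nbeal2-/-, 1 to 12 higher and 0 lower with IL-33, and 0 to 2 stronger and 0 to 5 weaker responses.

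With the replicate number as a block the genes called were 16 higher and 4 lower untreated, 8 higher and 0 lower with IL-33, and 1 stronger and 3 weaker responses. The block by culture gave 0 stronger and 2 weaker responses and changed no IL-33 call. Between genotypes, number 1 matched its own number best in both conditions, with r of 0.506 untreated and 0.238 with IL-33. With IL-33 number 3 also matched its own number best, at an r of only 0.0395. For numbers 2 to 4, r ran from -0.0346 to 0.163 untreated and from -0.0393 to 0.0395 with IL-33. That block therefore only adjusts for a shared number, and what the libraries numbered 1 share was not tested.

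Over all genes, the responses that differed numbered 706 in the edgeR fit and 1207 with DESeq2, and the genotype calls with IL-33 numbered 1730 and 3113 with only the groups compared. With libraries left out these ran from 86 to 1279 and from 671 to 2393. With limma on log2(RPM + 0.1) the median of all genes in Nbeal2-/- shifted to -0.12 for IL-33, against -0.014 in the edgeR fit. Depth limits Derl3, whose untreated libraries held at most 7 counts.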
